A study of Schmidtea mediterranea with 24 samples.

Results

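In planarian tails injected with extracellular vesicles (EVs), 38 of the 28742 transcripts in the count tables were lower than in tails injected with buffer, by the limits given here. They were chosen by their measured levels in CPM (a transcript's count divided by the library's total count and multiplied by 1000000). A transcript entered when its mean over the 8 injected libraries was at least 2 CPM, its mean in uninjected tails was under 500 CPM, its highest EV-injected library lay below its lowest buffer-injected library, and its EV-injected mean was at most 0.8 times its buffer-injected mean. Because the difference between EVs and buffer chose the 38 transcripts, its values and the calls made on it are given as descriptions and support nothing. How these transcripts stand against uninjected tails was not fixed by the choice in the same way and is given in more detail. All 8 injected libraries entered the choice, so the difference was followed into left-out libraries for other lists, chosen by the same limits from fewer libraries.

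The animals were asexual Schmidtea mediterranea of the clonal line CIW4, starved for 7 days and carrying no genetic change named in the labels. The EV-injected group received EVs in injection buffer, enriched from tissue fragments 12 hours after amputation, mixed with a fluorescent dextran. The buffer-injected group received the same buffer and dextran with no EVs, and the uninjected group received nothing. Injected animals with little dextran after 1 hour were discarded, a selection that uninjected animals did not pass through, so the injection and the selection cannot be told apart in any comparison with uninjected tails. Tails without about 10% of the tip were taken 24 hours after injection for the injected groups, 5 fragments to a pool and 4 biological replicates to a group. Poly-A selected RNA was sequenced in 2 runs per library, as paired reads of 150 bases.

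Planarians rebuild missing tissue from neoblasts, dividing stem cells that lie throughout the body and give rise to every other cell type. Injection opens the body wall, and wounding in planarians is known to switch on broad programs of gene expression. EVs are membrane-bound particles released by cells, which can carry RNA, protein and lipid to other cells. In a pool of whole tail tissue, fewer cells of a type and less RNA per cell cannot be told apart, and this holds for every level given here.

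The transcripts are known here by their assembly identifiers alone. No gene name, protein or sequence was paired with them in the sources used, so no role is given to any of them. Markers of planarian cell types could not be located for the same reason, and the part of cell composition in the results was not tested. What the tables do give is the length of each transcript, its count in every library and, through these, its level in each of the 12 tail pools.

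The 12 libraries held 19621187 to 30903133 counts. The 8 injected libraries lay between 21626096 and 30903133. All 38 transcripts passed the count filter of the tests. The scarcest value among them was 32 counts in 1 library, and the median of the lowest counts was 91.5. The smallest library, uninjected replicate 4, also detected the fewest transcripts, 26613, where its group otherwise detected 27018 to 27096.

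**Figure D1:**
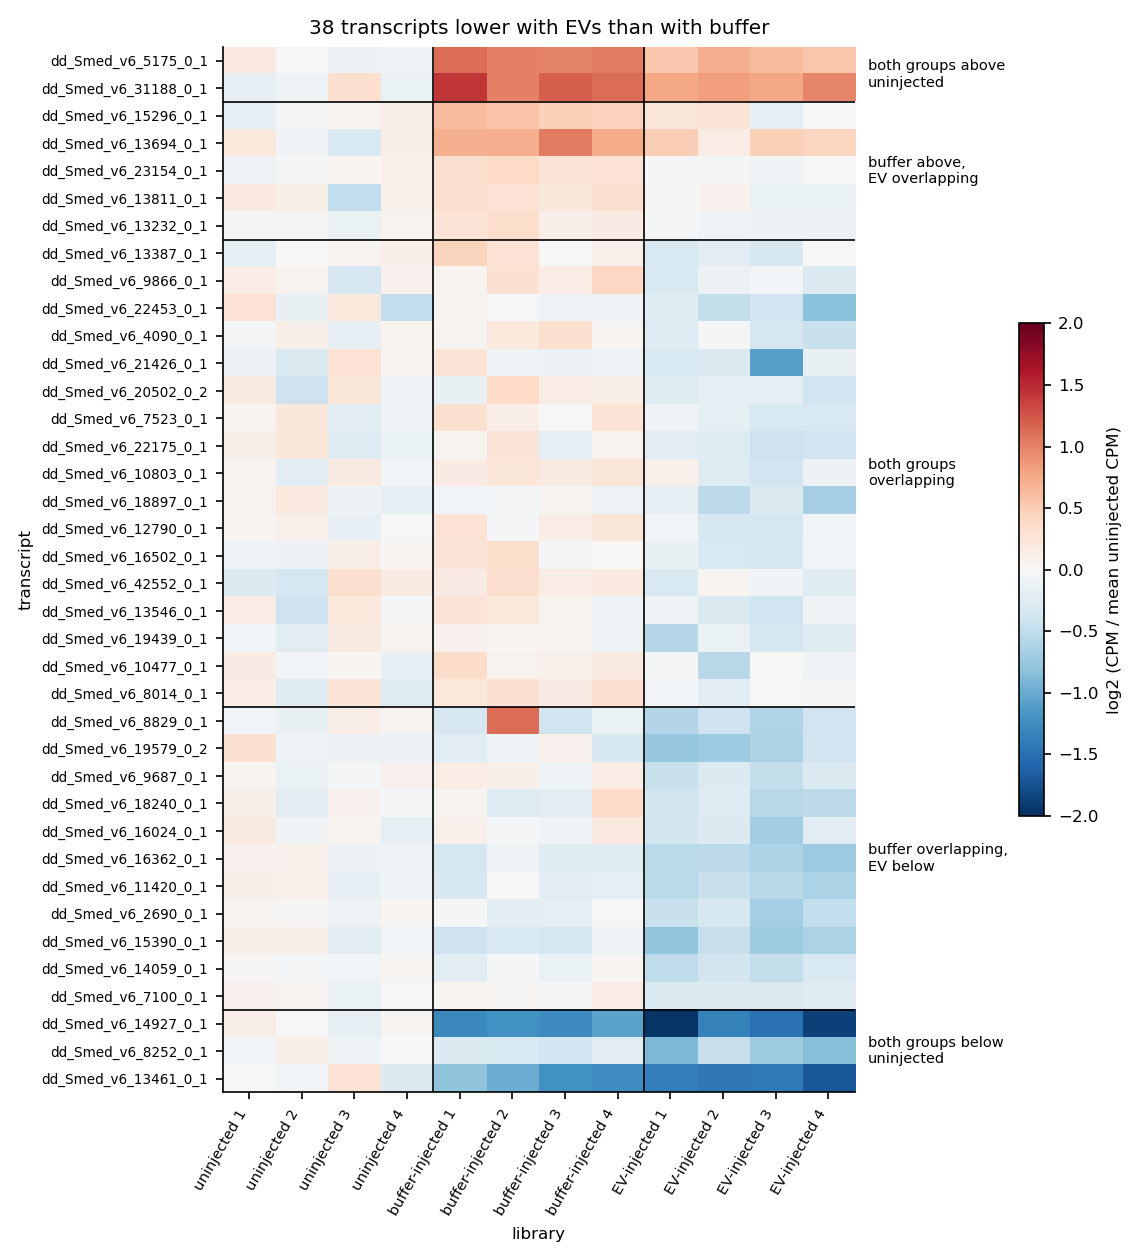
Level of each of the 38 transcripts (rows) in each of the 12 libraries (columns), as log2 of CPM over the mean CPM of the 4 uninjected libraries; red is above and blue below that mean. Black lines part the 3 groups and the 5 classes of position against uninjected tails, which hold 2, 5, 17, 11 and 3 transcripts from top to bottom.

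The difference that chose the transcripts was small in nearly all of them. The ratio of EV-injected to buffer-injected mean CPM ran from 0.613 to 0.8, with a median of 0.773. The highest EV-injected library came to between 0.826 and 0.9985 of the lowest buffer-injected library, so in many transcripts the groups were parted by a narrow gap. Of the 14654 transcripts within the abundance limits, 313 had every EV-injected library below every buffer-injected one at any size of difference, which is 2.14%. The reverse order held for 543. Over all transcripts within the limits the median ratio was 1.011, and the part of scaling in these counts was not tested. With edgeR, 4 of the 38 transcripts were called lower with EVs at an adjusted p under 0.05, where 0.0567% of all 21149 tested transcripts were. The choice used this contrast, so nothing is read from that count.

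The limit of 0.8 cut through a continuous range. The last transcripts inside it were dd_Smed_v6_8014_0_1 and dd_Smed_v6_7100_0_1, with ratios of 0.7996 and 0.8. The first ones outside it were dd_Smed_v6_1008_0_1 and dd_Smed_v6_7683_0_1, with 0.8002 and 0.8018, and both were more abundant, at 141.0 ± 4.82 and 139.7 ± 8.48 CPM with buffer against 112.8 ± 12.4 and 112.0 ± 7.32 CPM with EVs (SD, n = 4 each). Another 163 transcripts had a ratio of at most 0.8 but overlapping groups. In 103 of these, buffer-injected replicate 2 was the highest buffer-injected library, and in 39 it held over 50% of the summed CPM of its group. Among the 38 chosen transcripts it was the highest of its group in 9. Over all transcripts within the abundance limits it was the highest in 23.9%.

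Against uninjected tails the 38 transcripts did not follow 1 pattern. They were sorted by whether the range of the 4 buffer-injected libraries, and that of the 4 EV-injected libraries, lay above, below or across the range of the 4 uninjected libraries. In 2 transcripts both injected groups lay above, which is 5.26% of the 38 against 17.3% of all transcripts within the abundance limits. In 5 the buffer-injected group lay above and the EV-injected group overlapped, 13.2% against 4.42% of all. In 17 both overlapped, 44.7% against 57.5%. In 11 the buffer-injected group overlapped and the EV-injected group lay below, 28.9% against 3.65%. In 3 both lay below, 7.89% against 6.83%, a share near that of all transcripts. In no transcript did the buffer-injected group lie above and the EV-injected group below. EV-injected libraries lay below uninjected tails in 36.8% of the 38 and in 10.5% of all transcripts within the abundance limits. Since the choice asked for high buffer-injected and low EV-injected values, these positions are descriptions.

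Both injected groups stood above uninjected tails in dd_Smed_v6_5175_0_1 and dd_Smed_v6_31188_0_1. In dd_Smed_v6_5175_0_1, the longest of the 38 at 4076 bases, the uninjected libraries had 172, 150.0, 139 and 144 CPM, the buffer-injected libraries 328, 305, 299 and 309 CPM, and the EV-injected libraries 220.1, 251, 234 and 221 CPM. The 3 groups did not overlap, and the EV-injected libraries lay between the other two groups. The mean was 2.05 times the uninjected mean with buffer and 1.53 times with EVs. In dd_Smed_v6_31188_0_1 the uninjected libraries had 1.59, 1.66, 2.24 and 1.63 CPM, the buffer-injected 4.81, 3.58, 4.08 and 3.84 CPM, and the EV-injected 3.06, 3.19, 3.05 and 3.49 CPM. Again the EV-injected libraries lay between, but the gap to buffer was narrow, 3.49 against 3.58 CPM, and the transcript was scarce, with 170 counts in all uninjected libraries together.

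Buffer-injected tails stood above uninjected tails, and EV-injected tails overlapped them, in 5 transcripts. In dd_Smed_v6_15296_0_1 the uninjected libraries had 9.55, 10.4, 11.2 and 11.72 CPM, the buffer-injected 16.7, 15.9, 14.9 and 14.8 CPM, and the EV-injected 12.6, 12.9, 9.33 and 10.8 CPM. EV-injected replicates 1 and 2 were above every uninjected library, and replicates 3 and 4 were not. In dd_Smed_v6_13694_0_1 the uninjected libraries had 7.36, 6.06, 5.16 and 6.98 CPM, the buffer-injected 10.5, 10.6, 13.2 and 10.7 CPM, and the EV-injected 9.003, 7.06, 8.87 and 8.64 CPM. Here EV-injected replicate 2 alone fell within the uninjected range, and the EV-injected mean was 1.31 times the uninjected mean. In dd_Smed_v6_23154_0_1 the EV-injected libraries had 11.0, 11.0, 10.7 and 11.3 CPM, within the uninjected range of 10.5 to 12.1 CPM, while the buffer-injected libraries had 14.2, 14.8, 13.6 and 13.8 CPM. This transcript had the widest gap between EV-injected and buffer-injected libraries for its level, with the highest EV-injected library at 0.826 of the lowest buffer-injected one. The remaining 2, dd_Smed_v6_13811_0_1 and dd_Smed_v6_13232_0_1, had EV-injected means of 0.978 and 0.938 times the uninjected mean and buffer-injected means of 1.23 and 1.18 times.

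In 11 transcripts the buffer-injected libraries overlapped uninjected tails and the EV-injected libraries lay below both. The EV-injected mean was 0.641 to 0.826 times the uninjected mean, and the buffer-injected mean 0.823 to 1.16 times. In dd_Smed_v6_9687_0_1 the uninjected libraries had 7.92, 7.00, 7.53 and 8.15 CPM, the buffer-injected 8.51, 8.28, 7.22 and 8.48 CPM, and the EV-injected 5.65, 6.34, 5.50 and 6.24 CPM. The EV-injected libraries alone stood apart, with a mean of 5.93 ± 0.418 CPM against 7.65 ± 0.506 CPM uninjected and 8.12 ± 0.613 CPM with buffer (SD, n = 4 each). The more abundant dd_Smed_v6_7100_0_1 showed the same order, with 49.4, 48.5, 42.7 and 46.3 CPM uninjected, 48.0, 47.4, 46.0 and 51.6 CPM with buffer, and 38.1, 38.5, 38.1 and 39.6 CPM with EVs. Its EV-injected libraries varied little, with an SD of 0.707 CPM around a mean of 38.6.

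Within the same 11, dd_Smed_v6_2690_0_1 had the highest uninjected level per kilobase of transcript among the 38, 55.4 CPM per kilobase. Its libraries had 91.8, 91.3, 83.8 and 91.7 CPM uninjected, 86.9, 77.4, 77.9 and 89.3 CPM with buffer, and 65.7, 72.1, 56.1 and 63.7 CPM with EVs. Buffer-injected replicates 1 and 4 lay above uninjected replicate 3, and all 4 buffer-injected libraries lay below the other uninjected ones. The shortest transcript, dd_Smed_v6_19579_0_2 at 248 bases, had 3.62, 2.74, 2.71 and 2.70 CPM uninjected, 2.54, 2.76, 3.14 and 2.36 CPM with buffer, and 1.74, 1.78, 1.89 and 2.23 CPM with EVs. Its ratio of EV-injected to buffer-injected mean, 0.707, rested on 180 against 272 counts over 4 libraries each.

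The lowest ratio of all, 0.613 in dd_Smed_v6_8829_0_1, rested on 1 library. The buffer-injected libraries had 4.44, 12.1, 4.24 and 5.11 CPM, the EV-injected 3.74, 4.21, 3.70 and 4.23 CPM, and the uninjected 5.37, 5.01, 6.15 and 5.81 CPM. Buffer-injected replicate 2 stood above every other library, the next of which was uninjected replicate 3, and the other 3 buffer-injected libraries lay close to the EV-injected ones. Without that library the ratio was 0.864, outside the limit. In dd_Smed_v6_18240_0_1, with 275 counts over the EV-injected libraries, the gap between groups was also narrow. Its highest EV-injected library had 3.22 CPM and its lowest buffer-injected library 3.23 CPM.

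Both injected groups lay below uninjected tails in 3 transcripts, and the EV-injected libraries lay lower still. In dd_Smed_v6_14927_0_1 the uninjected libraries had 21.1, 19.2, 16.9 and 19.9 CPM, the buffer-injected 7.86, 8.28, 8.06 and 9.20 CPM, and the EV-injected 4.97, 7.59, 6.84 and 5.28 CPM. The injected groups were 0.433 times the uninjected mean with buffer and 0.320 times with EVs, and EV-injected replicate 2 came closest to buffer. In dd_Smed_v6_13461_0_1 the uninjected libraries had 19.0, 18.1, 23.0 and 15.5 CPM, the buffer-injected 10.9, 9.49, 8.12 and 8.02 CPM, and the EV-injected 7.30, 7.02, 7.12 and 5.80 CPM. Buffer-injected replicates 3 and 4 lay just above the EV-injected libraries. In dd_Smed_v6_8252_0_1 the uninjected libraries had 23.9, 27.1, 23.5 and 25.2 CPM, the buffer-injected 20.6, 20.2, 19.0 and 21.7 CPM, and the EV-injected 13.4, 18.0, 15.3 and 13.9 CPM. Here the buffer-injected group was nearer to the uninjected one, at 0.817 times its mean, and the EV-injected group was at 0.607 times.

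In the 17 transcripts where both injected groups overlapped uninjected tails, the uninjected mean lay between the other two means in 14. The buffer-injected mean was 0.975 to 1.19 times the uninjected mean and the EV-injected mean 0.728 to 0.953 times. The most abundant of them, dd_Smed_v6_4090_0_1, had 32.6, 36.4, 29.8 and 35.0 CPM uninjected, 34.8, 38.5, 41.5 and 34.9 CPM with buffer, and 27.9, 32.9, 26.5 and 24.7 CPM with EVs. In dd_Smed_v6_9866_0_1 the EV-injected libraries had 3.86, 4.44, 4.62 and 3.93 CPM and the buffer-injected 4.99, 5.95, 5.31 and 6.37 CPM. Its uninjected libraries, from 3.78 to 5.29 CPM, spanned the gap between them. In dd_Smed_v6_13387_0_1 the EV-injected libraries had 2.51, 2.69, 2.50 and 3.10 CPM and the buffer-injected 4.25, 3.79, 3.14 and 3.33 CPM, on either side of an uninjected mean of 3.11 ± 0.265 CPM (SD, n = 4). In dd_Smed_v6_22453_0_1 the uninjected libraries themselves ran from 2.14 to 3.66 CPM, the widest relative spread of the 38, with a coefficient of variation of 23.6%.

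**Figure D2:**
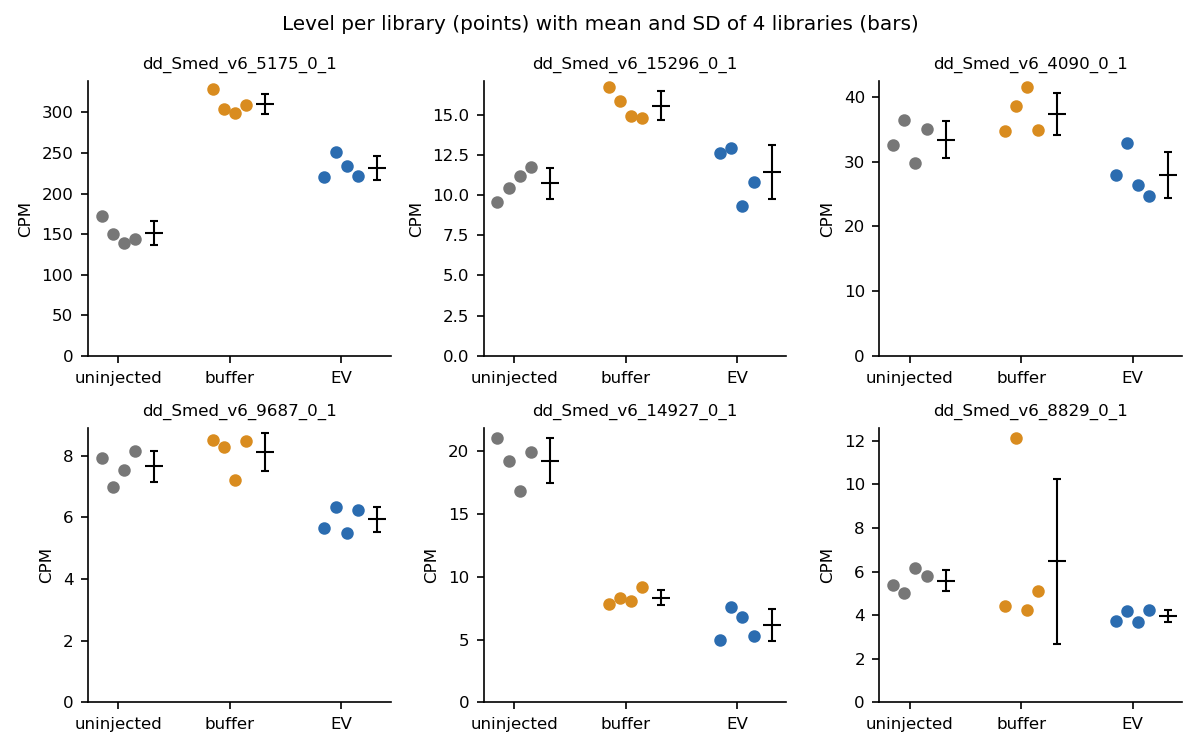
CPM of 6 of the transcripts in each library, with points for single libraries of uninjected (grey), buffer-injected (orange) and EV-injected (blue) tails, and bars for the mean and SD of 4 libraries. The EV-injected points lie between the other groups for dd_Smed_v6_5175_0_1, below both for dd_Smed_v6_9687_0_1 and dd_Smed_v6_14927_0_1, and 1 buffer-injected point at 12.1 CPM sets the mean of dd_Smed_v6_8829_0_1.

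To ask how these transcripts respond to injection without using the difference that chose them, the mean of both injected groups was compared with the uninjected group. This contrast weighs EV-injected and buffer-injected libraries alike, and it is independent of their difference only as far as both groups vary alike. The choice also set limits on the injected and the uninjected mean. Its demand for no overlap favours a small spread within the injected groups, which lowers adjusted p. The adjusted p values of the 38 are therefore not free of the choice. It was tested with edgeR's quasi-likelihood test over all 21149 transcripts. Of the 38, 4 rose, 10 fell and 24 were not called at an adjusted p of 0.05. Over all tested transcripts 15.2% rose and 13.4% fell. The 4 and 10 are 10.5% and 26.3% of the 38, and of the 14654 transcripts within the abundance limits 3011 rose and 2350 fell. The median log2 fold change was −0.13 over the 38 and 0.02 within the abundance limits.

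The 4 rises were dd_Smed_v6_31188_0_1, dd_Smed_v6_5175_0_1, dd_Smed_v6_13694_0_1 and dd_Smed_v6_15296_0_1. In that order they were higher by 0.98 ± 0.12, 0.78 ± 0.06, 0.56 ± 0.10 and 0.28 ± 0.08 on the log2 scale (SE). The edgeR adjusted p was 8.49e-06, 1.34e-08, 0.000431 and 0.0198. In the first 2, all 8 injected libraries were above all 4 uninjected ones, and these alone also passed a minimum fold of 1.5. The call of dd_Smed_v6_15296_0_1 was lost without uninjected replicate 1 or uninjected replicate 2 and with either run alone, where edgeR adjusted p rose to as much as 0.088, and over the 20 alternatives that refit the test it ran from 0.00422 to 0.088.

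The 10 falls were led by dd_Smed_v6_14927_0_1, at −1.47 ± 0.09 on the log2 scale (SE), and dd_Smed_v6_13461_0_1, at −1.31 ± 0.09, for which the edgeR adjusted p was 2.68e-09 and 1.05e-08. All 8 injected libraries lay below all uninjected ones in both, the only falls past a minimum fold of 1.5. The next were dd_Smed_v6_8252_0_1 at −0.55 ± 0.07 and dd_Smed_v6_15390_0_1 at −0.51 ± 0.10 (SE), with edgeR adjusted p of 1.36e-05 and 0.00053. The other falls ran from −0.46 in dd_Smed_v6_16362_0_1 to −0.16 in dd_Smed_v6_7100_0_1 on the log2 scale, and 7 of the 10 were transcripts whose buffer-injected libraries overlapped uninjected tails. In those 7 the low EV-injected libraries enter the mean. With buffer alone against uninjected tails, edgeR called 1 of the 7 lower, dd_Smed_v6_15390_0_1, at a log2 fold change of −0.32. The call of dd_Smed_v6_7100_0_1 (edgeR adjusted p = 0.0135) was lost without uninjected replicate 1 or uninjected replicate 2, with adjusted p from 0.00161 to 0.0645 over these 20 alternatives. That of dd_Smed_v6_19579_0_2 (edgeR adjusted p = 0.0166) was lost without uninjected replicate 1 and with either run alone, with a range of 0.0102 to 0.168. That of dd_Smed_v6_16362_0_1 (edgeR adjusted p = 0.000348) was lost with run 2 alone, with a range of 5.86e-05 to 0.202.

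The 24 transcripts without a call had log2 fold changes from −0.30 to 0.10 and edgeR adjusted p from 0.0867 to 0.964. In simulated data with 200 changed transcripts, the test recovered 35% of changes of 0.322 on the log2 scale. It recovered 62% of changes of 0.585 and 88% of changes of 1. In the measured data it called 6038 of 21149 transcripts, far more than were changed in the simulation. The simulated shares therefore do not give the recovery for the 24 transcripts, which was not tested. The lack of a call does not show that a transcript was unchanged. All 24 are described by their values alone. All 17 transcripts in which both groups overlapped uninjected tails were among these 24. So were 3 of the 5 with buffer-injected libraries above, namely dd_Smed_v6_23154_0_1, dd_Smed_v6_13811_0_1 and dd_Smed_v6_13232_0_1. dd_Smed_v6_8829_0_1 stood at −0.18 ± 0.22 on the log2 scale (SE), with an edgeR adjusted p of 0.589. It stood at −0.43 with an adjusted p of 0.00214 without buffer-injected replicate 2, with a range of 0.00214 to 0.781 over these 20 alternatives. Calls also appeared for dd_Smed_v6_18240_0_1 without buffer-injected replicate 4, for dd_Smed_v6_22453_0_1 without uninjected replicate 4 and for dd_Smed_v6_9687_0_1 with run 1 alone, at edgeR adjusted p of 0.0379, 0.0328 and 0.0241, the lowest in ranges that reached 0.389, 0.402 and 0.833.

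**Figure D3:**
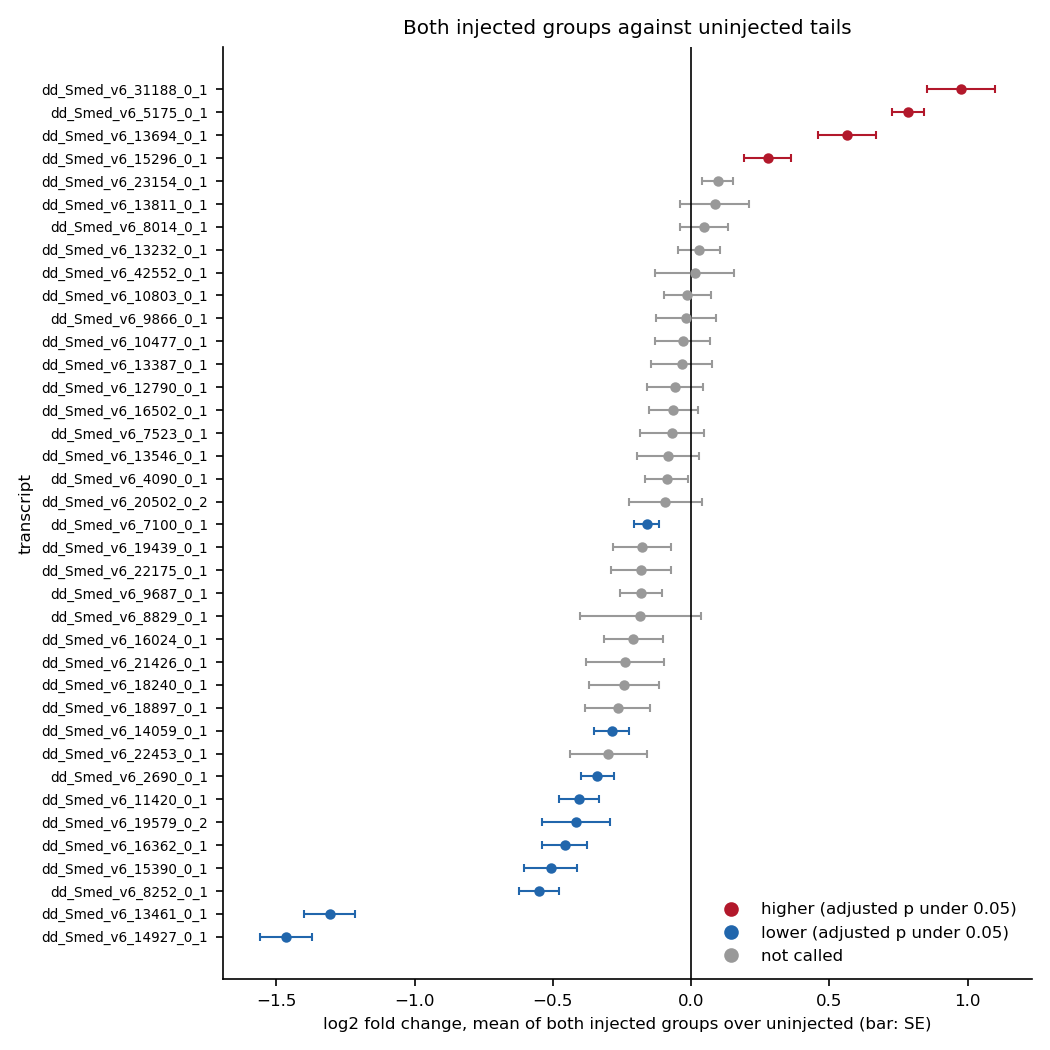
Log2 fold change of the mean of both injected groups over uninjected tails for each of the 38 transcripts, with SE as bars. The 4 red points rose and the 10 blue points fell at an edgeR adjusted p under 0.05, from −1.47 to 0.98, and the 24 grey points were not called.

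Each injected group was also set against uninjected tails by itself. These comparisons share the uninjected libraries, and each uses libraries that entered the choice, which favours high buffer-injected and low EV-injected values, so the counts are descriptions. Buffer-injected tails had 5 of the 38 called higher and 4 called lower with edgeR, or 13.2% and 10.5%, where 12.4% and 9.6% of all tested transcripts were. Of the 14654 transcripts within the abundance limits, 2461 were called higher and 1712 lower, both larger shares than in the 38. EV-injected tails had 3 called higher and 18 called lower, or 7.89% and 47.4%, where 13.9% and 11.9% of all tested transcripts were. Within the abundance limits 2759 were called higher, a larger share than in the 38, and 2161 lower, a smaller share. The median log2 fold change over the 38 was 0.10 with buffer and −0.32 with EVs.

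The median length and level of the 38 transcripts were below those of all transcripts within the abundance limits, but single members lay on both sides, and the differences were not tested. Their median length was 1152 bases against 1402, with a range of 248 to 4076. Their median uninjected level was 5.32 CPM per kilobase against 11.5. The coefficient of variation between uninjected libraries, which the choice did not use, had a median of 10.8% against 6.72%. The part of their lower counts in this spread was not tested. Transcripts chosen by the same limits turned round, described below, had medians of 6.45 CPM per kilobase and 10.3%. A low level and a wide spread were therefore not particular to the 38. A level per kilobase above 30 was reached by 3 of the 38, dd_Smed_v6_2690_0_1, dd_Smed_v6_5175_0_1 and dd_Smed_v6_4090_0_1, at 55.4, 37.1 and 32.4 CPM per kilobase.

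Among the EV-injected libraries, replicate 3 was the lowest for 16 of the 38 transcripts, where it was the lowest for 25.4% of all transcripts within the abundance limits. EV-injected replicate 2 was the lowest for 3 of the 38 and the highest for 15, where it was the lowest for 31.3% and the highest for 21.6% of all. Among the buffer-injected libraries, replicate 3 was the lowest for 17 of the 38, against 24.9% of all, and replicate 1 the highest for 14, against 28.8% of all. The 38 transcripts together took 0.0537% to 0.0595% of counts in uninjected, 0.0690% to 0.0736% in buffer-injected and 0.0529% to 0.0581% in EV-injected libraries. The buffer-injected sums, 690 to 736 CPM, lay above all others, and dd_Smed_v6_5175_0_1 alone gave 299 to 328 CPM of them. It gave 139 to 172 CPM of the uninjected sums, so the higher buffer-injected sums do not describe the 38 alike. Over the 38, the median log2 level against the uninjected mean was 0.036 to 0.125 in the buffer-injected libraries.

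The same difference was then looked at in libraries that had no part in choosing. For each of the 16 combinations of 1 EV-injected and 1 buffer-injected library, both were left out and the same limits were applied to the 3 against 3 that remained. This chose 69 to 160 transcripts. In the libraries that chose them their median ratio was 0.743 to 0.769. In the libraries left out, the median ratio of the EV-injected to the buffer-injected library was 0.868 to 1.09, with a median of 0.928 over the 16 combinations, where all transcripts within the abundance limits had 0.992 to 1.04. The chosen transcripts were lower in the left-out EV-injected library in 38.8% to 71.6% of cases, with a median of 62.6%, against 37.5% to 53.0% for all transcripts. The share was above that of all transcripts in 13 of 16 combinations, which share libraries and are not independent. A ratio of at most 0.8 was found again in 5.62% to 27.2% of the chosen transcripts and in 3.74% to 7.09% of all. All transcripts were not matched to the chosen ones for level or spread, and the part of these in the differing shares was not tested. The median ratio was thus nearer to 1 in the left-out libraries than in those that made the choice.

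**Figure D4:**
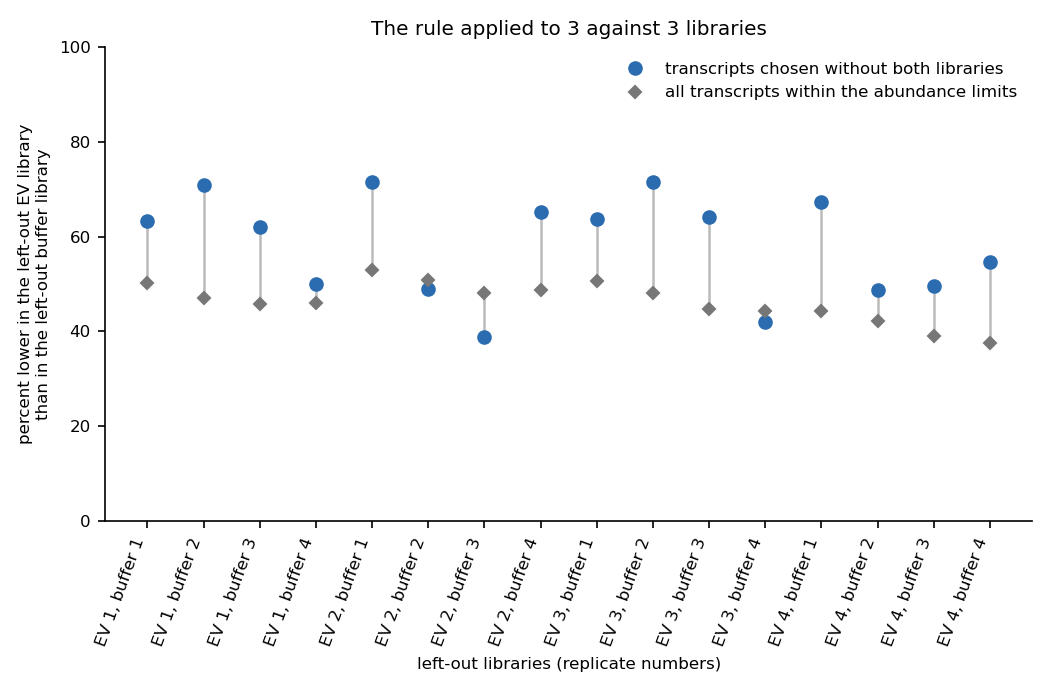
Percent of transcripts lower in a left-out EV-injected library than in a left-out buffer-injected library, for transcripts chosen without both (blue) and for all transcripts within the abundance limits (grey), in each of 16 combinations. Blue points run from 38.8% to 71.6% and lie above the grey ones in 13 combinations.

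With 1 injected library left out, 14 of the 38 transcripts met the limits every time, and the other 24 were lost at least once. The 14 include dd_Smed_v6_5175_0_1, dd_Smed_v6_4090_0_1, dd_Smed_v6_9687_0_1, dd_Smed_v6_15296_0_1, dd_Smed_v6_23154_0_1, dd_Smed_v6_13694_0_1 and the 3 with both groups below uninjected tails. The ratio of dd_Smed_v6_5175_0_1 stayed between 0.726 and 0.762, and that of dd_Smed_v6_23154_0_1 between 0.770 and 0.792. Of the 38, 27 remained without buffer-injected replicate 2, 28 without EV-injected replicate 3 and 37 without buffer-injected replicate 3. Fewer libraries overlap less often, so the number of transcripts meeting the limits rose, to 55, 71, 82 and 70 without buffer-injected replicates 1 to 4 and to 69, 96, 51 and 79 without EV-injected replicates 1 to 4.

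The 2 sequencing runs of each library repeat the measurement of the same RNA. The ratio was below 1 in both runs for all 38, as the sum of the runs chose them. It ran from 0.666 to 0.854 in run 1 and from 0.536 to 0.974 in run 2, which is shallower. The groups kept apart for 15 transcripts in run 1 and 14 in run 2. All limits were met in both runs by 5 transcripts, dd_Smed_v6_5175_0_1, dd_Smed_v6_2690_0_1, dd_Smed_v6_4090_0_1, dd_Smed_v6_15296_0_1 and dd_Smed_v6_23154_0_1. The last ones are among the more abundant of the 38, with 1019 or more counts in each group.

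**Figure D5:**
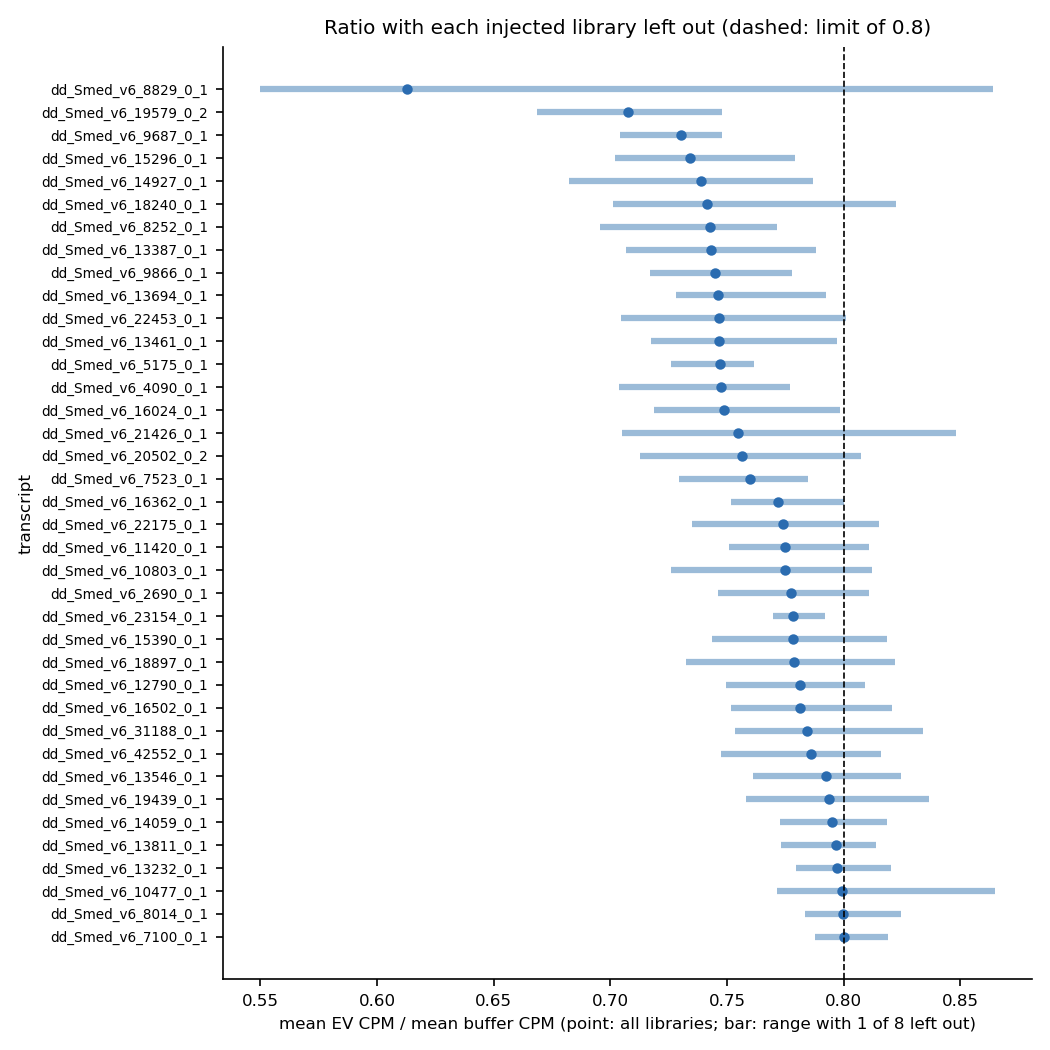
Ratio of EV-injected to buffer-injected mean CPM for each of the 38 transcripts with all 8 injected libraries (points) and its range with 1 of the 8 left out (bars); the dashed line is the limit of 0.8. The bars of 24 transcripts reach the line or cross it, and that of dd_Smed_v6_8829_0_1 reaches 0.864.

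The same limits turned round, for transcripts higher with EVs than with buffer, chose 71. Their median length was 666 bases, shorter than the 1152 bases of the 38. In 56 of the 71, or 78.9%, the EV-injected libraries lay above uninjected tails, where 24.9% of all transcripts within the abundance limits did. In 14 of the 38, or 36.8%, they lay below, where 10.5% of all did. For the mean of both injected groups against uninjected tails, edgeR called 35 of the 71 higher and 1 lower. Of the smaller set of 38 it called 4 higher and 10 lower, or 10.5% and 26.3%. Of the 14654 transcripts within the abundance limits it called 3011 higher, or 20.6%, and 2350 lower. The 2 sets were chosen from the same libraries in opposite directions, and the difference between them was not tested.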

How the data were processed

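Whole-number read counts were deposited by the authors, unnormalized, by run and as run totals, beside a transcript length in bases. FastQC 0.11.5, BBDuk, Bowtie2 2.3.1, featureCounts (Subread 1.6.3) and edgeR 4.0.16 are named by the submitters' processing notes or the design text. How strand and multiply mapping reads were handled is not given in the sources used here, which leaves counts uncertain where transcripts overlap or share sequence.

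Both runs of each library were added, giving 12 libraries from 24 sequencing samples, and the totals matched the deposited ones exactly in all 344904 cells. A chi-square per transcript (at least 50 counts) averaged 1.50 to 1.95 for 2 runs of a library and 4.33 to 18.5 for 2 libraries of a group, so every library is 1 replicate. CPM was scaled by column totals.

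Tests used R 4.3.3 with edgeR 4.0.16 (filterByExpr, TMM, quasi-likelihood F test, all 12 libraries, no covariate, Benjamini-Hochberg over 21149 transcripts holding 99.9% of counts, called under 0.05). SE came from the F statistic. The test was checked on simulated data. Alternatives were DESeq2 1.42.0, limma-voom (limma 3.58.1), DESeq2 size factors, other filters, a replicate block, single runs, a minimum fold and each library left out. Figures used matplotlib 3.10.9.

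The members and lists were chosen with earlier results of these data known. Transcripts are named by rule: the lowest ratios overall and per class, the highest levels per kilobase, the largest rises and falls, the transcripts at the ratio limit, and the longest and shortest. The others named were picked after their values were seen. Cell type marker lists could not be applied, as the files pair no identifier with a gene name. The authors' table of comparisons was not used.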

Additional observations from a re-analysis of the deposited data

Results flagged for a closer look

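A library standing far outside its group was found in 9 of 123 checks, where about 1 in 20, or 6.15, is the number chance gives. In dd_Smed_v6_8829_0_1, buffer-injected replicate 2 had 12.1 CPM while replicates 1, 3 and 4 had 4.24 to 5.11, which sets the ratio of this transcript. In dd_Smed_v6_13694_0_1, buffer-injected replicate 3 had 13.2 CPM against 10.5 to 10.7. In dd_Smed_v6_21426_0_1, buffer-injected replicate 1 had 6.01 CPM against 4.595 to 4.685. In dd_Smed_v6_10477_0_1, EV-injected replicate 2 had 4.29 CPM against 5.98 to 6.28.

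Uninjected libraries stood apart in dd_Smed_v6_19579_0_2, with 3.62 CPM in replicate 1 against 2.70 to 2.74, in dd_Smed_v6_2690_0_1, with 83.8 CPM in replicate 3 against 91.3 to 91.8, and in dd_Smed_v6_31188_0_1, with 2.24 CPM in replicate 3 against 1.59 to 1.66. The fewest transcripts were detected in uninjected replicate 4, 26613, where the rest of its group had 27018 to 27096. The 38 transcripts summed to 580.9 CPM in EV-injected replicate 2 against 529 to 534 in the other EV-injected libraries. The causes were not tested.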

How the results depend on the processing

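The number of transcripts chosen, 38, depends on the limits. It was 67 with a minimum mean of 1 CPM and 20 with 5 CPM, 15 with a ratio limit of 0.75 and 81 with 0.85, and 68 with run 2 alone. Leaving out 1 injected library gave 51 to 96. TMM scaling gave 55, all 38 among them, and DESeq2 size factors gave 52, with 37 of the 38. Sorting by how far means lay from the uninjected mean, in place of ranges, left 1 transcript, not 5, with buffer above and EVs near uninjected tails. In both injected groups against uninjected tails, the 4 rises and 10 falls were 2 and 2 at a minimum fold of 1.5, and 3 to 4 and 8 to 11 with a library left out. DESeq2 and limma-voom each gave 4 and 10, as did the replicate block. The labels do not say what a replicate number marks. Deviations of same-numbered libraries correlated at −0.0073 to 0.276, not above 0.1 in every pair, and 6 of 12 libraries correlated best with their own number, so the numbers were not used as pairs, and a shared batch was not tested. In 760 checks of the 38 transcripts, over the 20 alternatives that refit the test and so without the minimum fold, 746 kept their call, 10 lost it, 4 gained one and 0 of the called ones reversed. The share lower in left-out libraries, 62.6%, was 63.0% with TMM and 70.2% at a minimum of 5 CPM. Some of the 38 were scarce, with as few as 180 counts over the 4 EV-injected libraries. The causes of these shifts, depth among them, were not tested.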

Other observations

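Of the 163 transcripts within the abundance limits whose ratio was at most 0.8 but whose groups overlapped, the 39 with over 50% of the buffer-injected sum in 1 library all had it in buffer-injected replicate 2. The lowest ratios lay here and not among the 38. In dd_Smed_v6_766_0_1, picked after its values were seen as the lowest, buffer-injected replicate 2 had 28.5 CPM, replicate 3 had 2.10 CPM, and the transcript was listed at 0 in replicate 1 and in all 4 EV-injected libraries. In dd_Smed_v6_372_0_1, also picked after its values were seen, buffer-injected replicate 2 had 51.7 CPM, the other buffer-injected libraries 0.324 to 3.37 CPM and the EV-injected libraries 0.152 to 0.739 CPM. Without this library 27 of the 38 met the limits and 71 transcripts did in all. Without EV-injected replicate 3, 28 of the 38 did. The part of buffer-injected replicate 2 in the choice of the 38 was not tested. The cause of the high values in buffer-injected replicate 2 was not tested.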
